A study of Mus musculus with 20 samples.

Results

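The miR-26, miR-103 and miR-107 miRNAs were chosen by name, as every row of the deposited table for an arm of miR-26a, miR-26b, miR-103 or miR-107. These were miR-26a-5p, miR-26b-5p, miR-26b-3p, miR-103-3p and miR-107-3p, or 5 of 281 miRNAs. They were measured by small RNA sequencing in the right ventral hippocampus of 20 wildtype male mice of the strain C57BL/6JOlaHsd. No age was stated in the labels. The treated group of 10 mice received CBD (cannabidiol, a non-intoxicating compound of the hemp plant) at 200 mg/kg/day by intraperitoneal injection for 5 days, and the control group of 10 mice received vehicle. The mice were naïve, with no disease model in either group, and the comparison asks how CBD affects hippocampal miRNAs in such animals.

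The members are intronic miRNAs, cut from the introns of protein-coding genes and so able to be transcribed with their hosts. The miR-26 genes lie in the Ctdsp family, whose products are small phosphatases of the tail of RNA polymerase II and help to silence neuronal genes outside neurons. The miR-103 and miR-107 genes lie in the Pank family, which encodes pantothenate kinases, the enzymes of the first committed step of coenzyme A synthesis. In mice miR-103 and miR-107 are known as regulators of insulin sensitivity in liver and fat.

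The mature sequences show why the members were read in pairs, since each pair shares the seed (bases 2 to 8, in capitals) by which a miRNA pairs with its targets. They are given 5′ to 3′ from RefSeq (GRCm38.p6).
miR-26a-5p: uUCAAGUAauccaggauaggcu
miR-26b-5p: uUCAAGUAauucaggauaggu
miR-26b-3p: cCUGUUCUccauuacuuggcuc
miR-103-3p: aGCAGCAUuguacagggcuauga
miR-107-3p: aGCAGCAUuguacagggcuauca
Counted from 1 at the 5′ end, miR-26b-5p differs from miR-26a-5p by C11U and C21U and is 21 rather than 22 bases long. The sequence of miR-107-3p differs from that of miR-103-3p by G22C alone, out of 23 bases. A read that ends before base 22 therefore matches miR-103-3p and miR-107-3p equally, and no source used here says how the authors assigned such reads. Of the 281 miRNAs, 247 matched a RefSeq mature sequence by name. Among these 247, no miRNA outside the pairs had the seed of miR-26a-5p or of miR-103-3p. The letters AGCAGC within bases 1 to 8 were found in 6 of the 247, which were miR-103-3p, miR-107-3p and 4 members of the miR-15/16 family.

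These rows come from 6 hairpins. In GRCm38, Mir26a-1 lies at chr9:119031796-119031885 in intron 5 of Ctdspl, and Mir26a-2 at chr10:126995530-126995613 in intron 5 of Ctdsp2. Both give the same miR-26a-5p, so its row cannot tell the loci apart, and their 3p arms were not among the 281 miRNAs. Mir26b lies at chr1:74394310-74394394 in intron 4 of Ctdsp1. Its hairpin is shown because it is the only member locus with both arms measured, the arms being in capitals.
Mir26b: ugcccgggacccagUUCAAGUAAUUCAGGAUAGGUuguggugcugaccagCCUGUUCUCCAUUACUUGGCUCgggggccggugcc
Mir103-1 lies at chr11:35782396-35782481 in intron 5 of Pank3 and Mir103-2 at chr2:131288052-131288137 in intron 5 of Pank2, and both give the same miR-103-3p. Mir107 lies on the minus strand at chr19:34820687-34820773 in intron 5 of Pank1. All 6 hairpins are on the strand of their host. The host mRNAs were not measured in these libraries.

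The listed library size was between 242178 and 1245429 reads. The libraries fall into 4 runs of a deposited technical table, with 3 CBD and 2 vehicle libraries in run 1, 3 and 3 in run 2, 2 and 2 in run 3, and 2 and 3 in run 4. The 3 neuron markers, which mark brain tissue, were all measured, with mean log2 levels of miR-9-5p at 16.92 (CBD) and 16.78 (vehicle), of miR-128-3p at 14.55 and 14.57 and of miR-124-3p at 10.29 and 10.83. Of the 3 red blood cell markers listed (miR-451a, miR-144-3p and miR-486a-5p), 0 were among the 281 miRNAs by name. A row named miR-486b-5p, which was not on the list, was measured at a mean log2 level of 7.39, so red blood cell miRNAs cannot be called absent. In 3 libraries miR-434-3p took over 30% of the listed reads, with 30.4% in CBD replicate 6, 31.6% in CBD replicate 8 and 35.2% in vehicle replicate 5. These had scaling factors (effective over listed library size) of 0.714, 0.693 and 0.788. The lowest 3 levels of miR-26a-5p were in the same 3 libraries, and the lowest 2 levels of both miR-103-3p and miR-107-3p were in vehicle replicate 5 and CBD replicate 8. In CBD replicate 6 miR-103-3p and miR-107-3p had ranks 10 and 13 from the lowest. The other members were not low throughout. In CBD replicates 6 and 8 and vehicle replicate 5, miR-26b-5p had ranks 10, 2 and 8 and miR-26b-3p ranks 16, 19 and 11. Treatment differences of the single members and correlations of the guide arms are therefore also given without the 3 libraries.

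The members spanned a wide range of abundance, from miR-26a-5p, the miRNA of rank 9 by mean level, to miR-26b-3p at rank 250. Over the 20 libraries the mean level, as log2 CPM (reads scaled to the effective library size), was 14.12 ± 0.39 (SD, n = 20) for miR-26a-5p. It was 12.60 ± 0.22 for miR-103-3p (rank 27), 10.79 ± 0.26 for miR-107-3p (rank 62) and 10.56 ± 0.56 for miR-26b-5p (rank 73). For miR-26b-3p it was 6.49 ± 0.36, at 15 to 126 reads per library. Its lowest count of 15 reads had an exact 95% Poisson interval of 8.40 to 24.7 reads, which covers counting error only, while every other member had at least 210 reads in each library.

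The order of the levels was clear at 3 of its 4 steps. Within each library miR-26a-5p was above miR-103-3p in 20 of 20, by a mean of 2.88-fold. The level of miR-103-3p was above that of miR-107-3p in 20 of 20, by 3.51-fold, and that of miR-26b-5p above miR-26b-3p in 20 of 20, by 16.8-fold. The neighbours miR-107-3p and miR-26b-5p did not differ beyond their spread, with a mean log2 ratio of 0.23 ± 0.50 (SD, n = 20) and miR-107-3p higher in 12 of 20.

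**Figure D1:**
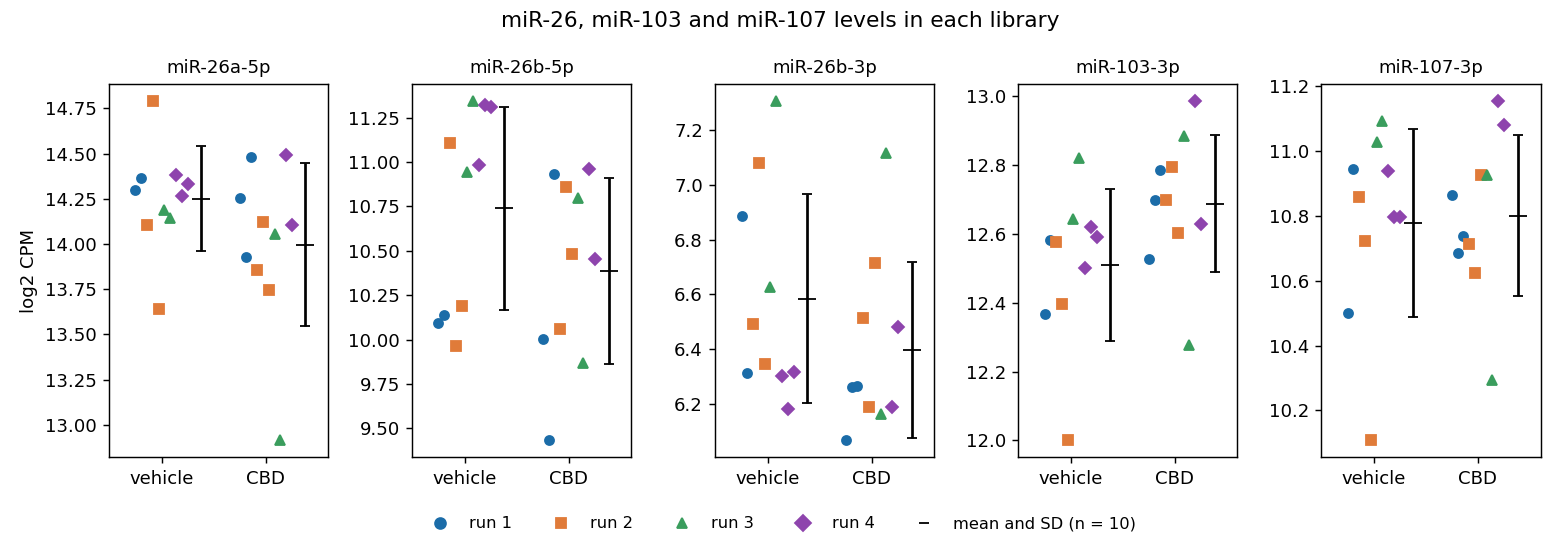
Log2 CPM of the 5 members in each of the 20 libraries, by treatment, with run shown by colour and symbol and the mean and SD (n = 10) beside each group. For every member the CBD and vehicle libraries overlap, and CBD replicate 8 (run 3) is the lowest point of miR-26a-5p, at 12.91.

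None of the miR-26 rows passed the test of CBD against vehicle, and the differences of all 3 were negative. The level of miR-26a-5p, the abundant guide arm, was lowest at 12.91, with a median of 14.08 and a highest value of 14.49 in the 10 CBD libraries. In the 10 vehicle libraries these were 13.64, 14.28 and 14.79. The groups overlapped, with 9 of 10 CBD libraries within the vehicle range and 7 of 10 below the vehicle mean. The group means were 16979 ± 4488 CPM for CBD and 19850 ± 3906 CPM for vehicle (SD, n = 10 per group). The log2 difference was -0.26 (SE 0.18, 95% interval -0.62 to 0.11, limma p = 0.160, adjusted p = 0.683), a level 0.837 times that of vehicle. With run as a further term it was -0.26 (adjusted p = 0.403), and within runs 1 to 4 it was -0.11, -0.27, -0.68 and -0.03. It was -0.14 without CBD replicate 8 and -0.16 without the 3 libraries rich in miR-434-3p, a set left out after seeing the data. Over the whole table of 281, an adjusted p under 0.05 was reached by 0.00% and an unadjusted p under 0.05 by 7.83%, and 0 of the 5 members were among the latter. With the run term the shares were 0.00% and 14.9%, again with 0 of the 5. In bulk tissue, fewer cells of a type and less RNA per cell cannot be told apart.

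The paralogue miR-26b-5p had the widest spread of the 5 members between libraries. In CBD libraries its log2 level was lowest at 9.43, with a median of 10.47 and a highest value of 10.96, and in vehicle libraries these were 9.96, 10.96 and 11.35. Of the CBD libraries, 8 of 10 lay within the vehicle range and 2 of 10 below it. The means of 10.38 ± 0.52 and 10.74 ± 0.57 (SD, n = 10 per group) gave a log2 difference of -0.35 (SE 0.24, 95% interval -0.85 to 0.14, limma p = 0.154, adjusted p = 0.677). With the run term it was -0.27 (adjusted p = 0.525). Within runs 1 and 2 it was 0.01 and 0.05, and within runs 3 and 4 it was -0.81 and -0.50, so its sign was the same as the pooled one in 2 of 4 runs. With 1 run left out it lay between -0.23 (without run 4) and -0.53 (without run 2). Without the 3 libraries rich in miR-434-3p it was -0.36.

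The passenger arm miR-26b-3p, the strand of the hairpin that is mostly discarded, had log2 levels from 6.07 to 7.12 with a median of 6.26 in CBD libraries, and from 6.18 to 7.31 with a median of 6.42 in vehicle libraries. Here 8 of 10 CBD libraries were below the vehicle mean, and the ranges overlapped. The means were 6.40 ± 0.32 and 6.58 ± 0.38 (SD, n = 10 per group), and the log2 difference was -0.19 (SE 0.18, 95% interval -0.57 to 0.19, limma p = 0.312, adjusted p = 0.817). The run term gave -0.20, and the separate runs 1 to 4 gave -0.40, -0.17, -0.33 and 0.07. It lay at -0.11 without vehicle replicate 7 and at -0.35 without the 3 libraries rich in miR-434-3p (limma adjusted p = 0.699).

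The pair of miR-103-3p and miR-107-3p did not pass either, and miR-103-3p was the only one of the 5 with most CBD libraries above the vehicle mean. In CBD libraries its log2 level was lowest at 12.28, with a median of 12.70 and a highest value of 12.99, and in vehicle libraries these were 12.00, 12.58 and 12.82. Of the CBD libraries, 9 of 10 were above the vehicle mean, the exception being CBD replicate 8, and 2 of 10 were above the vehicle range. The means of 12.69 ± 0.20 and 12.51 ± 0.22 (SD, n = 10 per group) gave a log2 difference of 0.18 (SE 0.13, 95% interval -0.09 to 0.45, limma p = 0.182, adjusted p = 0.712), a level 1.13 times that of vehicle. With the run term it was 0.19 (adjusted p = 0.430), and within runs 1 to 4 it was 0.20, 0.37, -0.15 and 0.24. The exact permutation test within runs, over 12000 relabellings, gave p = 0.0703 and an adjusted p of 0.395 over 281 miRNAs, the smallest p of the 5 members. By that test 14.6% of the 281 miRNAs had an unadjusted p under 0.05 and 0.00% an adjusted one. Without the 3 libraries rich in miR-434-3p the difference was 0.18 (limma p = 0.0965, adjusted p = 0.708). Without run 2 it was 0.09, and with 1 total per library as the scaling 0.10.

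For miR-107-3p, which carries the same seed, the group means were close. Its log2 level was between 10.29 and 11.16 with a median of 10.80 in CBD libraries, and between 10.11 and 11.09 with a median of 10.83 in vehicle libraries. The means were 10.80 ± 0.25 and 10.78 ± 0.29 (SD, n = 10 per group), and 5 of 10 CBD libraries were above the vehicle mean. The log2 difference was 0.02 (SE 0.15, 95% interval -0.29 to 0.33, limma p = 0.880, adjusted p = 0.965). The run term gave 0.04 and the separate runs 1 to 4 gave 0.04, 0.19, -0.45 and 0.28, and its sign turned with 1 total per library (-0.05).

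Calls depended on how libraries were weighted. When limma gave each library a weight by how closely it followed the fit, an adjusted p under 0.05 was found for 8.54% of the 281 miRNAs and an unadjusted one for 20.3%, with 0 and 2 of the 5 members. These 2 were miR-26b-5p at -0.48 (limma p = 0.0203, adjusted p = 0.139) and miR-103-3p at 0.20 (limma p = 0.0329, adjusted p = 0.177). With weights and the run term the shares over the table were 0.00% and 20.3%, with 0 and 2 of the 5 members. In that fit miR-103-3p was at 0.24 (limma p = 0.0145, adjusted p = 0.140) and miR-26b-3p at -0.31 (limma p = 0.0419, adjusted p = 0.220), while miR-26b-5p was at -0.22 (adjusted p = 0.423).

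**Figure D2:**
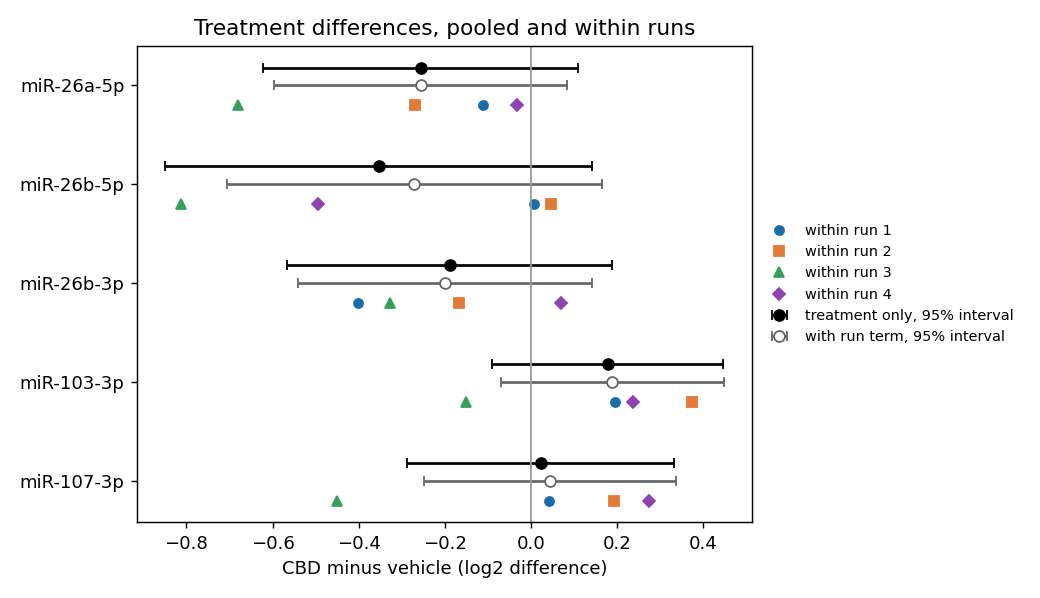
CBD minus vehicle on the log2 scale for the 5 members, from the fit with treatment only (filled, 95% interval), from the fit with the run term (open, 95% interval) and within each run (coloured symbols). Every interval includes 0, and the run 3 value is the lowest of the 4 runs for each of the 4 members other than miR-26b-3p, down to -0.81 for miR-26b-5p.

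Runs were examined because 48.0% of the 281 miRNAs differed between them at an adjusted p under 0.05 (limma F test with treatment in the model). None of the 5 members did. The nearest was miR-26b-5p (limma F = 2.96, p = 0.0554, adjusted p = 0.0922). Its mean log2 levels were 10.12 ± 0.54, 10.44 ± 0.46, 10.74 ± 0.63 and 11.00 ± 0.35 (SD, n = 5, 6, 4 and 5) in runs 1 to 4. The means of miR-26a-5p were 14.27, 14.04, 13.82 and 14.32, those of miR-26b-3p 6.36, 6.56, 6.80 and 6.29. For miR-103-3p and miR-107-3p the run means lay closer together, between 12.51 and 12.67 for miR-103-3p and between 10.66 and 10.95 for miR-107-3p. Their limma adjusted p was 0.749 and 0.501, and that of miR-26a-5p and miR-26b-3p 0.238 and 0.220. Whether the treatment difference itself varied between runs was tested by the interaction, which 0.00% of the 281 miRNAs passed and for which the members had limma adjusted p between 0.900 and 0.970. An unadjusted interaction p under 0.05 was found for 4.98%, none of them a member. The sign of the difference was the same in 4 of 4 runs for miR-26a-5p alone among the 5, which was also the case for 21.7% of all miRNAs.

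Between libraries miR-103-3p and miR-107-3p were among the steadiest miRNAs of the table. The SD over 20 libraries of miR-103-3p, 0.22 on the log2 scale, was the second lowest of 281 after that of let-7a-5p (0.20), and that of miR-107-3p was of rank 6 from the lowest, against a median SD of 0.56. With run means removed they had ranks 6 and 17. These ranks depend on the scaling. They were 10 and 11 with median centring, 24 and 13 with quantile normalisation and 26 and 46 with 1 total per library. The SD of miR-26a-5p had rank 46 and that of miR-26b-5p rank 141, the middle of the table.

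**Figure D3:**
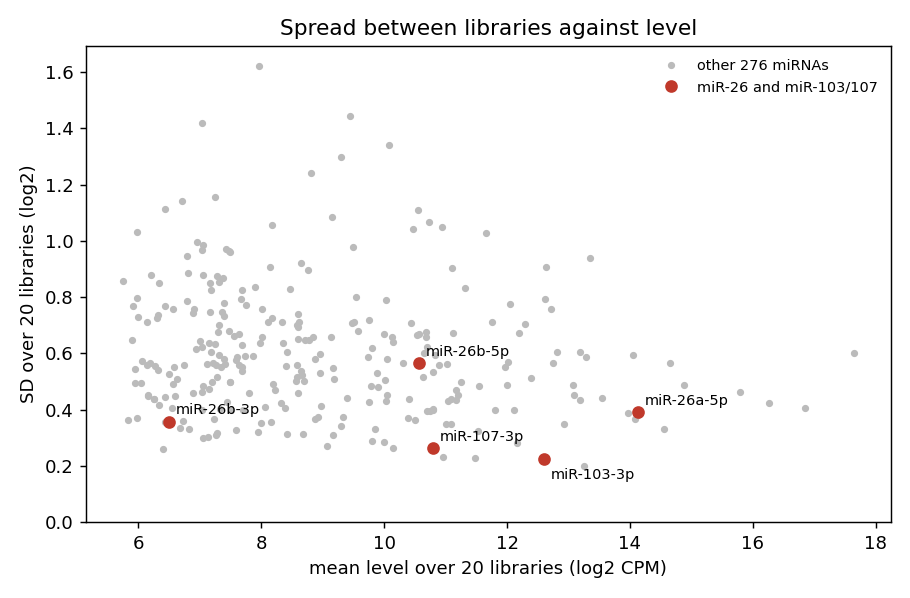
SD over the 20 libraries against mean log2 level for the 281 miRNAs, with the 5 members marked. The points of miR-103-3p (SD 0.22) and miR-107-3p (SD 0.26) lie at the lower edge of the cloud, and miR-26b-5p (SD 0.56) lies in its middle.

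The ratio between the paralogues of the Pank introns varied little across libraries and that between the paralogues of the Ctdsp introns varied more, though the difference between the pairs was not tested. Likeness was measured as the SD over 20 libraries of the log2 ratio. A scaling factor common to all miRNAs of a library cannot change this SD, though quantile normalisation can. It can also be small when both miRNAs vary little, without their varying together. For miR-103-3p and miR-107-3p it was 0.18, and each was the miRNA most like the other among 280. For miR-26a-5p and miR-26b-5p it was 0.57, and miR-26b-5p was at rank 90 of 280 by likeness to miR-26a-5p. The part of reads that match both sequences in this likeness was not tested.

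Correlations across the 20 libraries were computed for the 6 pairs of guide arms. The levels of miR-103-3p and miR-107-3p had Pearson r = 0.749 (permutation test, p = 0.00029, adjusted p = 0.00174 over 6 pairs) and Spearman rho = 0.468 (p = 0.0398, adjusted p = 0.120). With run means removed r was 0.731 (adjusted p = 0.0443, permutation within runs). Without CBD replicate 9 and vehicle replicate 5, the 2 libraries farthest from the median of miR-103-3p, r was 0.505 (permutation test, p = 0.0325, adjusted p = 0.0976). The relation was weaker without them, though leaving out the extremes of miR-103-3p also narrows its range. Without the 3 libraries rich in miR-434-3p, a choice made after seeing the data, r was 0.442 over 17 libraries (permutation test, adjusted p = 0.313). For miR-26a-5p and miR-26b-5p r was 0.336 (permutation test, adjusted p = 0.148) and rho 0.311 (adjusted p = 0.217), and r was 0.417 without the 2 farthest libraries and 0.191 without CBD replicate 8 alone. With run means removed it was 0.496 (adjusted p = 0.141). The other 4 pairs had r between 0.370 and 0.529, with permutation adjusted p between 0.0653 and 0.130. Without the same 3 libraries, r for miR-26a-5p was 0.106 with miR-26b-5p, -0.293 with miR-103-3p and 0.039 with miR-107-3p. For miR-26b-5p it changed less, from 0.442 to 0.360 with miR-103-3p and from 0.473 to 0.405 with miR-107-3p (permutation test, adjusted p = 0.313 for both without the 3). All points of a pair share the library's scaling.

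**Figure D4:**
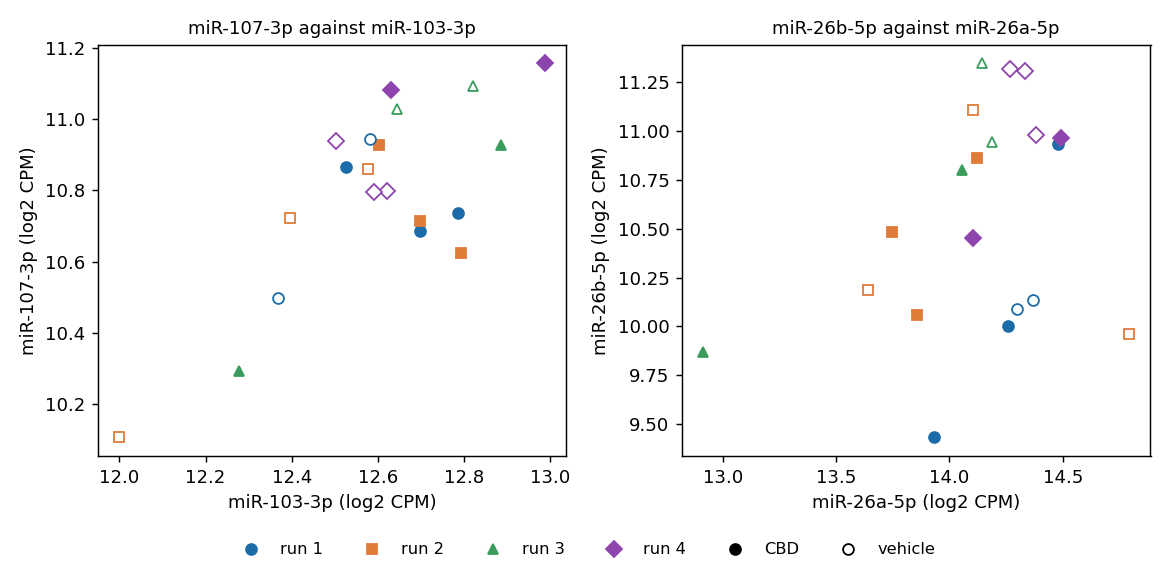
Log2 levels of miR-107-3p against miR-103-3p (left) and of miR-26b-5p against miR-26a-5p (right) in the 20 libraries, with run by colour and symbol and vehicle as open symbols. On the left vehicle replicate 5 (12.00 and 10.11) and CBD replicate 9 (12.99 and 11.16) form the ends of the relation, with CBD replicate 8 (12.28 and 10.29) next to the lowest, and on the right the points scatter widely (r = 0.336).

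Outside the group, the miRNAs most like miR-26a-5p were miR-16-5p, miR-186-5p and miR-195a-5p, with SDs of the log2 ratio of 0.27, 0.27 and 0.29. Those most like miR-26b-5p were miR-872-5p, let-7f-5p and miR-29c-3p, at 0.27, 0.29 and 0.30. Those most like miR-103-3p were miR-93-5p, miR-22-3p and miR-872-3p, at 0.25, 0.25 and 0.26, and those most like miR-107-3p were miR-872-3p, miR-22-3p and miR-330-5p, at 0.23, 0.26 and 0.26. In the same order Pearson r was 0.513, 0.771 and 0.346 with miR-103-3p, and 0.573, 0.744 and 0.698 with miR-107-3p. A small SD of the ratio thus did not always go with a close correlation. The median SD over all miRNAs outside the group was 0.60 to 0.80 for the 4 guide arms. With run means removed the nearest 3 were the same for miR-26b-5p, while 2 of 3 were shared for miR-103-3p and miR-107-3p and 1 of 3 for miR-26a-5p.

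Ratios within a library show how the members stood to each other. The ratio of miR-26a-5p to miR-26b-5p had a mean log2 value of 3.61 ± 0.46 for CBD and 3.51 ± 0.68 for vehicle (SD, n = 10 per group), or 12.2-fold and 11.4-fold. It varied from 6.95-fold in its lowest library to 28.4-fold in its highest. By run its mean was 4.15, 3.60, 3.09 and 3.31 on the log2 scale in runs 1 to 4. The ratio of miR-103-3p to miR-107-3p was far more even, between 2.92-fold and 4.50-fold, with a mean log2 value of 1.89 ± 0.20 for CBD and 1.73 ± 0.11 for vehicle (SD, n = 10 per group). Within runs 1 to 4 its log2 difference between CBD and vehicle was 0.15, 0.18, 0.30 and -0.04. The guide to passenger ratio of miR-26b had a mean log2 value of 3.99 ± 0.70 and 4.15 ± 0.74 (SD, n = 10 per group), from 6.72-fold to 35.2-fold.

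The ratio of miR-103-3p to miR-26a-5p was added after seeing that these members had differences of opposite sign, and is a description with no test. Its log2 value lay between -1.73 and -0.64 with a median of -1.28 in CBD libraries, and between -2.40 and -1.32 with a median of -1.70 in vehicle libraries. Its means were -1.31 ± 0.32 and -1.74 ± 0.29 (SD, n = 10 per group), a log2 difference of 0.43, and within runs 1 to 4 it was 0.31, 0.64, 0.53 and 0.27. The groups overlapped, and the CBD values were on the whole the higher ones. The highest CBD value, -0.64, was in CBD replicate 8 and the next, -1.14, in CBD replicate 6, both rich in miR-434-3p. The other library rich in miR-434-3p, vehicle replicate 5, was at -1.64. The difference of this ratio was not computed without these 3 libraries.

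**Figure D5:**
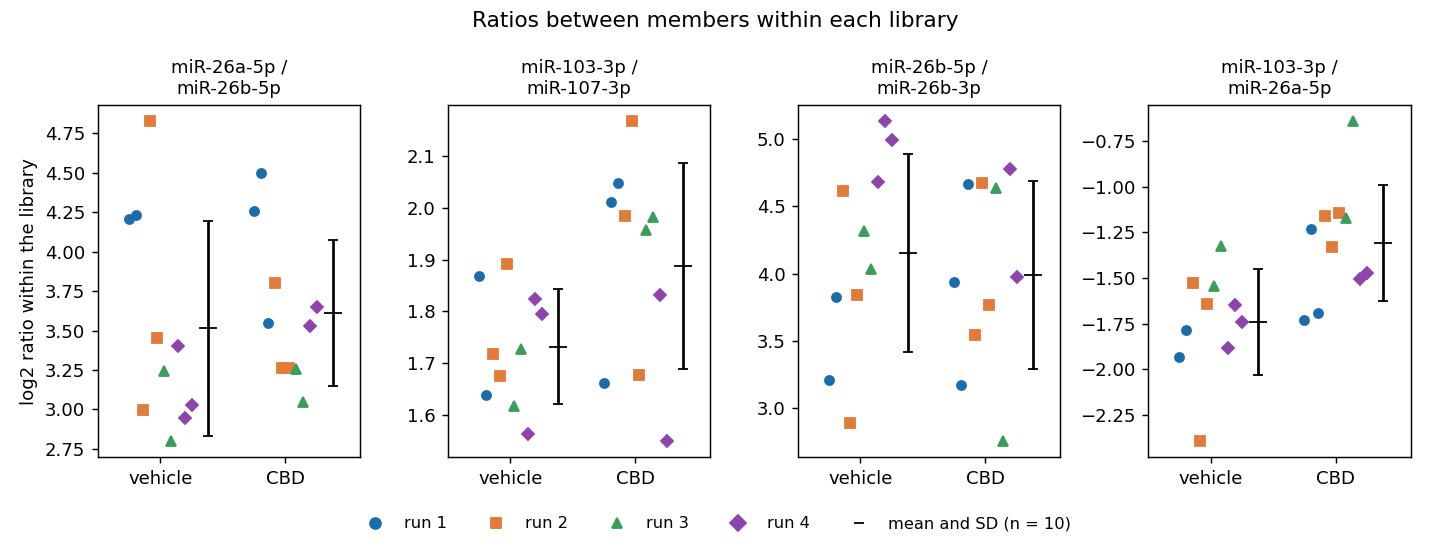
Log2 ratios between members within each of the 20 libraries, by treatment, with run by colour and symbol and the mean and SD (n = 10) beside each group. The ratio of miR-26a-5p to miR-26b-5p spans 2.80 to 4.83 and that of miR-103-3p to miR-107-3p only 1.55 to 2.17.

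The sum of a pair does not depend on how reads were divided between its members. The sum of miR-26a-5p and miR-26b-5p was 18393 ± 4803 CPM for CBD and 21677 ± 3816 for vehicle (SD, n = 10 per group), a log2 difference of -0.27, and miR-26b-5p made up 8.23% of it. The sum of miR-103-3p and miR-107-3p was 8463 ± 1089 and 7677 ± 1135 CPM (SD, n = 10 per group), a log2 difference of 0.15, of which miR-107-3p made up 22.3%. Both values lay near those of the more abundant paralogue, and within runs the second had a negative sign in run 3 alone, at -0.22.

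Related miRNAs were set beside the members from lists chosen by name. The miR-15/16 family shares the AGCAGC letters with miR-103 and miR-107 at a place shifted by 1 base. All 4 of its measured members had negative differences, with a median of -0.40, against a median of -0.08 and 173 negative of 281 over all miRNAs. Of these 4, miR-15a-5p at -0.52 (limma p = 0.0430) and miR-195a-5p at -0.40 (limma p = 0.0391) had an unadjusted p under 0.05, with adjusted p of 0.576 and 0.549, and over all miRNAs that share was 7.83%. Of 20 miRNAs listed for lipid and glucose metabolism, 11 were measured, 3 with a positive and 8 with a negative difference and a median of -0.37. The same threshold was met by 2 of the 11, which were miR-148a-3p at -0.50 and miR-370-3p at -0.37, with limma adjusted p of 0.470 and 0.549.

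Among 33 other miRNAs listed as lying in protein-coding hosts, 29 were measured, with 5 positive and 24 negative differences and a median of -0.24. Over all miRNAs 173 of 281 differences were negative. An unadjusted p under 0.05 was found for 5 of the 29, beside 7.83% of all miRNAs. These were miR-153-3p at -1.06, miR-126a-5p at -0.74, miR-338-3p at -0.62, miR-126a-3p at -0.52 and miR-151-5p at -0.40, all with a limma adjusted p of 0.470. The lists share members, so their counts are not separate observations. The rows of miR-126a-5p, miR-126a-3p, miR-338-3p and miR-128-3p are also cell type markers below, and miR-335-5p is in the metabolism list too. The metabolism list also shares miR-143-3p with the blood vessel markers. The 0 of 5 members and the counts of these lists are descriptions, and no difference between lists was tested.

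Markers of other cell types were read for the same libraries. All 4 blood vessel markers had negative differences (median -0.53), beside 173 of 281 over all miRNAs. An unadjusted p under 0.05 was found for miR-126a-5p and miR-126a-3p (limma p = 0.0108 and 0.0202, adjusted p = 0.470 for both). The difference of miR-143-3p was only -0.02, and 0.03 with the run term. The summed log2 level was 11.62 to 12.48 in CBD and 11.71 to 13.12 in vehicle libraries. All 3 oligodendrocyte markers had negative differences too (median -0.61), among them miR-338-3p (limma p = 0.0251, adjusted p = 0.470). Their sums were 8.26 to 9.70 and 8.96 to 11.00. Of the 5 microglia and immune markers 2 were measured, both with negative differences (median -0.29) and with sums of 11.53 to 14.28 and 11.26 to 14.59. Of the 5 choroid plexus and ependyma markers 3 were measured, 2 with positive and 1 with a negative difference (median 0.16), with sums of 12.44 to 14.52 and 12.04 to 15.06. Of the 3 neuron markers 2 had negative differences and 1 a positive one, the nearest to the threshold being miR-124-3p at -0.54 (limma p = 0.0552, adjusted p = 0.578), with sums of 16.57 to 17.92 and 16.81 to 17.34. The part of such cells in the values of the members was not tested.

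The authors' deposited table gives log2 fold changes of -0.26 for miR-26a-5p, -0.29 for miR-26b-5p, -0.17 for miR-26b-3p, 0.19 for miR-103-3p and 0.04 for miR-107-3p. In the authors' deposited table their p-values were 0.0575, 0.100, 0.344, 0.0951 and 0.752. The lowest adjusted p among them in the authors' deposited table was 0.231, for miR-26a-5p, so none of the members passed there. By p-value miR-26a-5p had rank 70 in the authors' deposited table. Its p of 0.0575 there stands beside a limma p of 0.160 here, and the reason for this difference was not tested. The share of all miRNAs that passed there was not computed, so the absence of the members cannot be set against it.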

How the data were processed

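Per the labels' protocols, Trizol RNA was made into small RNA libraries by the Illumina TruSeq method and cut to size, with no molecular identifiers named. Reads are therefore not independent molecules, and intervals on reads cover counting error only. The submitters' processing notes name edgeR, limma and the build mm10. No source used here names an aligner or counter. Deposited by the authors were log2 values for 281 miRNAs. All values (100%) equalled log2((n + 0.5) / (L + 1) × 1000000) for whole reads n, within 1e-06 reads, with 1 effective library size L per library. The authors' deposited technical table, of other unit, gives library sizes and runs, whose meaning is not stated. The authors' deposited comparison table holds log2 fold changes, p-values, scores and a fold ratio, the last 2 not used here.

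Here limma 3.58.1 (R 4.3.3) was fitted to all 281 miRNAs in 20 libraries, with 1 term, treatment, and a variance trend. Differences are CBD minus vehicle, and tests are two-sided. The Benjamini-Hochberg adjustment covered all 281 p-values, and 0.05 was the threshold. The fit was tested on simulated data. Correlations used 100000 permutations. Nothing in the labels pairs mice between groups. The members, lists and tests were chosen with earlier results of these data known. All members are named, as are the 3 miRNAs most like each guide arm and, from each list, those with an unadjusted p under 0.05, or otherwise the 2 with the smallest p where described. Hosts are from GENCODE M21. Alternatives were other scalings, weights, a run term and leaving out libraries or runs.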

Additional observations from a re-analysis of the deposited data

Results flagged for a closer look

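The level of miR-26a-5p in CBD replicate 8 was 12.91 on the log2 scale, while the next lowest of the 10 CBD libraries was at 13.75. The gap between them was 0.528 of the group's whole range, above the critical value of 0.466 for 10 libraries. In the same library miR-434-3p took 31.6% of the listed reads. Levels and ratios of the members were examined in 18 groups of libraries, and chance alone flags about 1 in 20.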

How the results depend on the processing

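No member had an adjusted p under 0.05 under any alternative run (lowest 0.139, miR-26b-5p with array weights), and the sign held in all of them for the 4 members other than miR-107-3p. The difference of miR-107-3p reversed to -0.052 with 1 total per library, to -0.050 without run 2, to -0.028 without run 4 and to -0.0039 without the 3 libraries rich in miR-434-3p. The cause was not tested. With each library left out in turn it ranged from -0.052 to 0.079, and that of miR-26a-5p from -0.32 to -0.14, miR-26b-5p from -0.44 to -0.25, miR-26b-3p from -0.27 to -0.11 and miR-103-3p from 0.12 to 0.22. Array weights gave 24 of 281 miRNAs at an adjusted p under 0.05, against 0 with treatment only, 0 with array weights and the run term and 0 in each of the 20 fits without a library, and none of the 5 members was among the 24. With array weights and the run term miR-26b-3p had -0.31 (limma adjusted p = 0.220) and miR-26a-5p -0.09. The correlation of miR-103-3p with miR-107-3p was 0.505 without the 2 farthest libraries and 0.442 without the 3 libraries rich in miR-434-3p, and that of miR-26a-5p with miR-103-3p reversed to -0.293 without those 3. No paired analysis was possible because the labels pair no mice. Count tests with edgeR or DESeq2 were not run, since the deposited values were log2 levels and whole reads were only recovered from them. No miRNA had a mean log2 level of 5 or less, so that filter removed 0. At 15 to 126 reads, miR-26b-3p is the member most limited by depth.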
